A study of Mus musculus with 8 samples.

Results

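The genes described here are the 10 feedback genes of NF-kB, a family of transcription factors of inflammation, among the 32285 genes listed in single-cell RNA sequencing of the mouse periosteum, the cell layer that covers bone. They were chosen by symbol, and comprise the IkB family genes Nfkbia, Nfkbiz, Nfkbid and Nfkbie, the other negative regulators Tnfaip3, Zfp36 and Ier3, and the NF-kB subunit genes Relb, Nfkb1 and Nfkb2. All 10 were found in both matrices. Cells were released by enzymatic digestion from the left femurs and tibias of male C57BL/6J mice at 16 weeks of age, which had received normal diet chow (ND) or high fat diet chow (HFD). The labels list 4 samples per diet, but the cells of each diet were deposited as 1 pooled matrix in which no barcode was assigned to a sample or mouse. Each diet was therefore 1 library without a replicate check. Every comparison of diets below therefore describes these 2 libraries, no test between diets could be made, and the exact 95% intervals, given in brackets, cover nothing beyond counting error. A level is the number of unique molecular identifiers (UMIs, tags that count RNA molecules) of a gene per 1000000 UMIs of its cell class and library. The ND library held 6029 cells and the HFD library 6224 cells after filtering, with 48106513 and 49411888 UMIs, and 14 barcodes occurred in both. Cells of blood lineages prevailed, and mesenchymal cells made up 6.82% of the ND and 10.9% of the HFD cells.

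NF-kB dimers are held in the cytoplasm by inhibitors of the IkB family until signals from tumor necrosis factor, interleukin-1 or Toll-like receptors activate the IkB kinase, which marks the inhibitor for degradation. Freed dimers enter the nucleus and, among other targets, transcribe genes that end the signal. Nfkbia encodes IkB-alpha, which returns the dimers to the cytoplasm, Tnfaip3 encodes the ubiquitin-editing enzyme A20, and Zfp36 encodes tristetraprolin, which binds AU-rich elements and destabilizes cytokine mRNAs. Several of these genes are also switched on within minutes by other stimuli, and tissue digestion is a known one.

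The promoters are shown because genes called lower in HFD and genes without such a call both carried a letter match to the NF-kB binding motif there. The kappaB consensus was searched on both strands of the 250 bases before each RefSeq start on GRCm38.p6. RefSeq windows were matched by symbol for 7 of the 10 genes (Nfkbiz, Relb and Nfkb1 had none), and 6 of these 7 had at least 1 match, while 4.46% of 27025 symbols did over all genes. Genes with several starts had several chances of a match, 8 of the 12 windows of these genes held one, and 3.90% of all 32851 windows did. Capitals mark the matches below, and overlapping matches are merged. The whole windows of Nfkbia (chr12:55492648-55492897, minus strand) and Nfkbie (chr17:45555450-45555699, plus strand) are shown 5′ to 3′, up to the base before the start.
Nfkbia: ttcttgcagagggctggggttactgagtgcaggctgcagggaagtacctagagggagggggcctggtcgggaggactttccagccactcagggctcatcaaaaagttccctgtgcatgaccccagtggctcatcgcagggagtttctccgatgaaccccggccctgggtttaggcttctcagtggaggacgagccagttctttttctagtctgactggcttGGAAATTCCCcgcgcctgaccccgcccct
Nfkbie: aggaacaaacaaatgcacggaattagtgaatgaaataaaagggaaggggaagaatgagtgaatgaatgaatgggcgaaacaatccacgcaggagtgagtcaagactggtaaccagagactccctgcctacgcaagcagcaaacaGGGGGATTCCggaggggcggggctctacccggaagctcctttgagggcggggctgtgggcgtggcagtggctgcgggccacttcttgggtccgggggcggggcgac
The match of Nfkbia began 29 bases before the start and that of Nfkbie 106 bases before it. Shorter stretches show the match of Ier3 (chr17:35821611-35821640, plus strand, 92 bases before its start), both matches of Tnfaip3 (chr10:19015516-19015545 and chr10:19015411-19015432, minus strand, 125 and 12 bases before its start), both of a start of Nfkbid (chr7:30422170-30422199 and chr7:30422215-30422244, plus strand, 226 and 181 bases before it) and those of a start of Nfkb2 (chr19:46304689-46304718 and chr19:46304716-46304736, plus strand, 38 and 11 bases before it, the former overlapping a match at 39).
Ier3: tgcgaagggcGGAGTTCCCCccggcccggc
Tnfaip3, far: gactcacgcgGGGACACCCCggggcgggac
Tnfaip3, near: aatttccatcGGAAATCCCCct
Nfkbid, far: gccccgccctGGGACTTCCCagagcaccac
Nfkbid, near: gggccgaacaGGAATTCCCCgtgcgcgggg
Nfkb2, far: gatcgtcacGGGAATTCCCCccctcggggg
Nfkb2, near: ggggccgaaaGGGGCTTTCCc
The 1 window of Zfp36 held no match in these letters. Against the GENCODE annotation of the build, the stretches of Nfkbia, Nfkbie and Ier3 lay outside the gene, those of Tnfaip3 and Nfkbid in an intron and those of Nfkb2 in an exon of a transcript.

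Cells were clustered without the NF-kB genes, and 27 of 28 clusters were named by marker genes into 15 classes. The 11 classes with at least 50 cells in each library held 93.8% of the kept cells and were compared. They ranged from NK cells (131 ND and 108 HFD cells) to mature neutrophils (1673 and 1645), and their median depth from 3340 UMIs per cell in ND mature neutrophils to 30761 in ND granulocyte-monocyte progenitors. Endothelial cells (117 and 233) and mesenchymal cells (411 and 678) took a larger share of the HFD library, so that levels over all cells mix diet and composition. In 3 clusters over 70% of the cells came from ND: cluster 19 of immature neutrophils (178 ND and 10 HFD cells), cluster 23 of monocytes (88 and 21) and cluster 21 of T cells (108 and 42).

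Over the 11 compared classes, to which every order of levels below is limited, the genes differed in where they were expressed, as the plot of levels by class shows. Nfkbia was highest in mature neutrophils in both libraries, at 2378 in ND and 1652 in HFD, followed by macrophages at 1897 in ND and 1405 in HFD. Its lowest level stood in B cell precursors, at 475 in ND and 393 in HFD. No interval of the mature neutrophils overlapped that of the next class, but with classes taken from each cell's marker UMIs macrophages ranked first in both libraries. As reported, its range over the 11 classes was 5.0-fold in ND and 4.20-fold in HFD. Nfkbiz, which encodes the nuclear IkB-zeta, a co-activator of secondary response genes, had the same leading classes, with 683 in ND and 526 in HFD in mature neutrophils and 393 in ND and 286 in HFD in macrophages. Over the 22 points of 11 classes and 2 libraries, Nfkbia and Nfkbiz were the most alike pair of the 10 genes by Pearson's r of log2 levels (0.91), points that share libraries and depth.

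**Figure D1:**
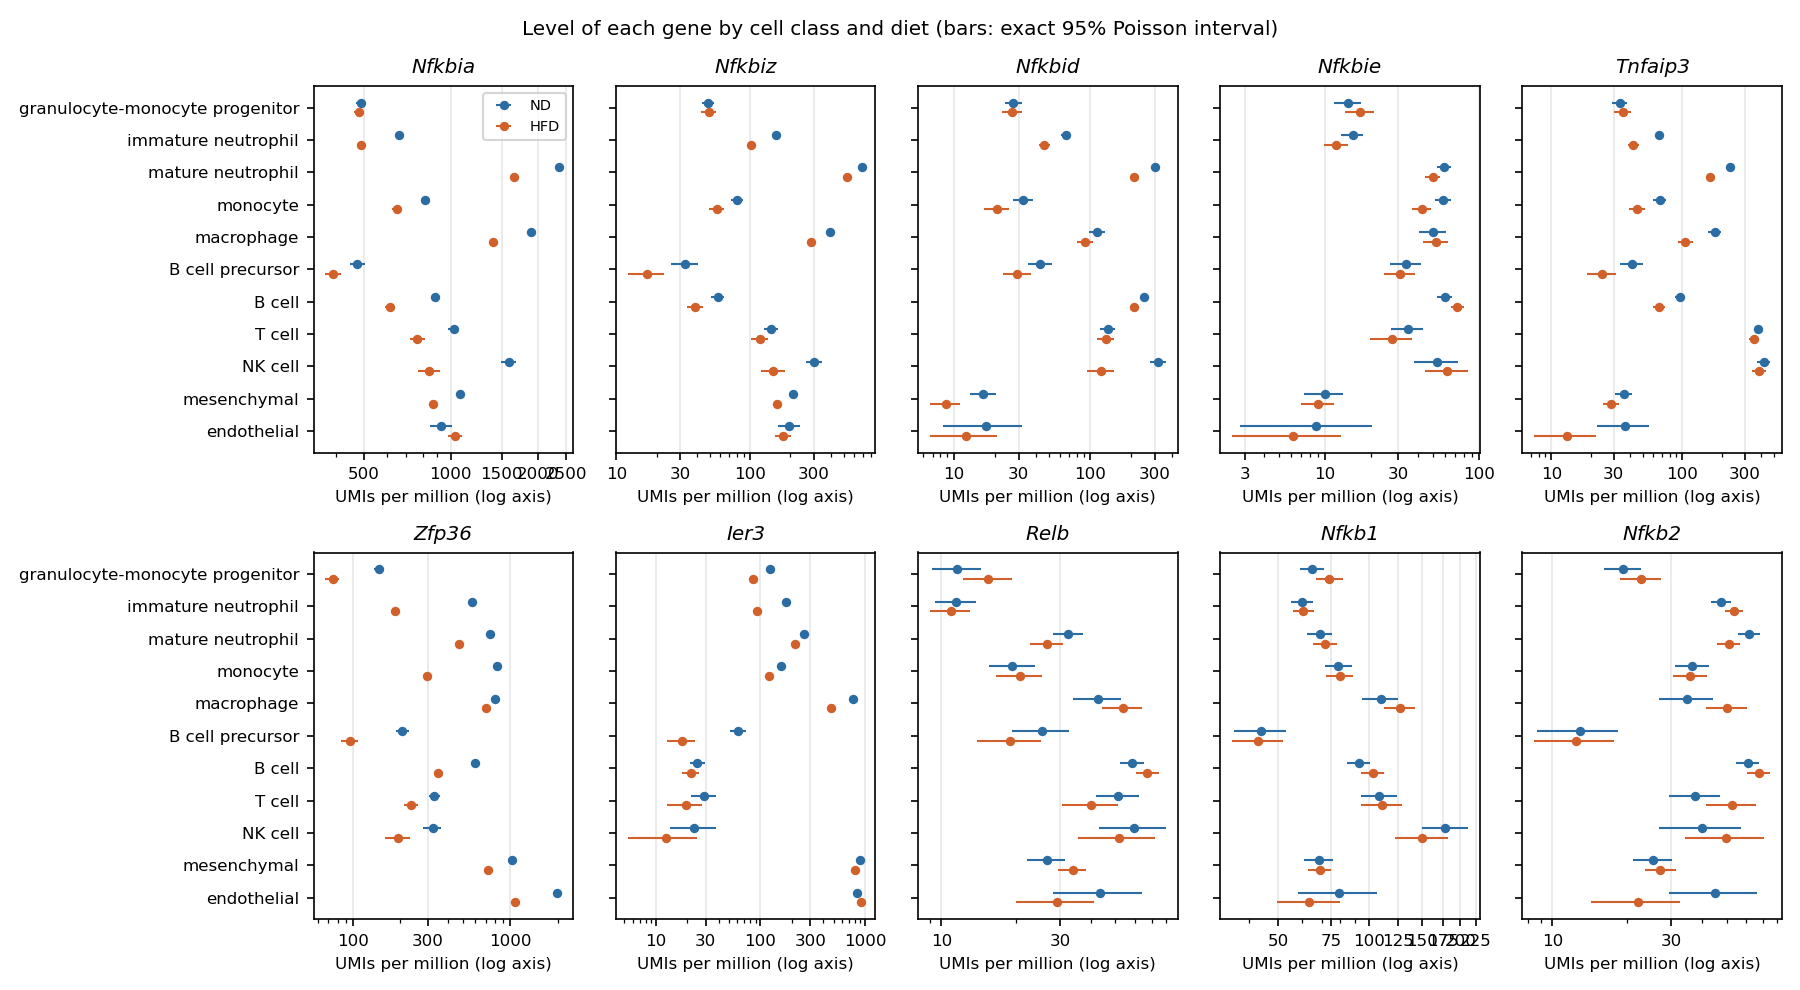
Level of each of the 10 genes (UMIs per 1000000, log axis) in 11 cell classes, with ND in blue and HFD in orange, where bars are exact 95% Poisson intervals. Nfkbia and Nfkbiz peak in mature neutrophils and Ier3 in mesenchymal and endothelial cells, the points of Zfp36 lie lower in HFD in every class, and the intervals of Nfkb1 overlap between the diets in every class.

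Tnfaip3 was led by lymphocytes, and Nfkbid by lymphocytes and mature neutrophils. Of the 11 classes, Tnfaip3 was highest in NK cells (421 in ND and 389 in HFD) and T cells (380.1 in ND and 355 in HFD), with overlapping intervals, and mature neutrophils came next at 233 in ND and 163 in HFD. Nfkbid, which encodes the nuclear IkBNS, stood at 316 in ND and 120.2 in HFD in NK cells, 298 in ND and 210.1 in HFD in mature neutrophils and 248 in ND and 211 in HFD in B cells, so that NK cells ranked first in ND and B cells in HFD, each with an interval that overlapped that of mature neutrophils. Under 5 of 6 alternatives that changed the classes or the weight of cells, mature neutrophils ranked first in HFD. In both libraries it was lowest in stromal classes, with 16.5 in ND and 8.72 in HFD in mesenchymal cells and only 10 and 14 UMIs in endothelial cells. Ier3, an immediate-early gene tied to cell survival, was distributed otherwise. It reached 886 in ND and 802 in HFD in mesenchymal cells and 845 in ND and 912 in HFD in endothelial cells but 25.0 in ND and 21.6 in HFD in B cells, and its levels spanned 37.9-fold over the classes in ND and 73.1-fold in HFD, the widest range of the 10 genes, with NK cells lowest at 17 and 8 UMIs. Over the same 22 points of class and library its r with Nfkbid was -0.52.

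Zfp36 was highest in endothelial cells, at 1988 in ND and 1071 in HFD, and next in mesenchymal cells, at 1030 in ND and 721 in HFD. Granulocyte-monocyte progenitors had the lowest level of the gene, at 146 in ND and 74.2 in HFD. The range over the classes was 4.09-fold in ND and 3.49-fold in HFD for Nfkb1. It was 4.78-fold in ND and 5.42-fold in HFD for Nfkb2, and 5.15-fold in ND and 6.16-fold in HFD for Relb. Narrow ranges were not limited to the subunit genes. That of Nfkbia was narrower than that of Relb in both libraries and than that of Nfkb2 in HFD (4.20-fold for Nfkbia). For Relb and Nfkb2 the interval of the leading class overlapped that of at least 1 other. Nfkb1 was highest in NK cells among the 11 classes, at 179 in ND and 149.8 in HFD. B cells had the highest level in HFD for Relb (67.1), Nfkb2 (67.5) and Nfkbie (72.6), and in ND their intervals overlapped that of the highest class or were themselves highest.

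The main comparison asked which of the genes differed between ND and HFD within a class. The interval of the ratio lay below 0, that is lower in HFD, in all 11 classes for Zfp36 and in 7 to 9 of them for Nfkbia, Nfkbiz, Nfkbid, Tnfaip3 and Ier3. It lay below 0 in 0 classes for Nfkb1 and Relb and in 2 for Nfkb2, and above 0 in 2 for Nfkb2 and in 1 for Relb. The 2 classes of Nfkb2 below 0 include endothelial cells, on 26 ND and 25 HFD UMIs (log2 ratio -1.03 [-1.88 to -0.18]), under the minimum of 100 UMIs used next. Of 110 pairs of gene and class, 99 had at least 100 UMIs over both libraries, and 21 of these (21.2%) were at least 1.5-fold lower in HFD and 0 were at least 1.5-fold higher. Over all genes tested in the same classes 3.21% were that much lower and 1.98% that much higher. A ratio below 0, of any size, was found in 73 of the 99 pairs. Over all genes tested, that share ran from 37.8% in monocytes to 61.7% in mature neutrophils. Intervals below 0 were not counted over all genes, so the counts of intervals have no background. With no replicate check, a value past 1.5-fold was called lower or higher here. The 11 pairs under 100 UMIs were spread over NK cells (4 genes), endothelial cells (5), and B cell precursors and T cells (1 each).

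Grouped by role, the 3 other negative regulators were called lower in 14 of 30 pairs (median log2 ratio of HFD over ND -0.55) and the 4 IkB family genes in 7 of 41 (-0.38). The 3 subunit genes were called lower in 0 of 28 (median 0.07), with intervals below 0 in 1 pair and above 0 in 3. Over all genes tested 3.21% were called lower, and 0 of 28 pairs is near that share. Within classes, 4 of 10 genes were lower in immature neutrophils against 5.88% of all genes tested, 4 of 9 in B cell precursors (2.49%) and 4 of 6 in NK cells (2.63%). Macrophages (4.67%) and monocytes (2.79%) had 2 of 10 each. The count was 1 in B cells (2.68%), mature neutrophils (3.31%), mesenchymal cells (2.53%) and granulocyte-monocyte progenitors (2.32%), each of 10, 1 of 5 in endothelial cells (3.27%) and 0 of 9 in T cells (3%). In mature neutrophils 8 of the 10 intervals nevertheless lay below 0, with log2 ratios from -0.66 for Zfp36 to -0.24 for Nfkbie. In that class 61.7% of the 5173 genes tested had a ratio below 0. The median log2 ratio of all genes tested was between -0.07 and 0.06 in each class.

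None of the 99 pairs of gene and class was thus at least 1.5-fold higher in HFD as the classes were defined here. Over all genes tested that share was 3.37% in mesenchymal cells, 3.34% in endothelial cells, 3.2% in macrophages, 2.8% in NK cells and 2.01% in T cells. It was 1.76% in monocytes, 1.61% in B cell precursors, 1.56% in B cells, 1.24% in mature neutrophils, 1.15% in granulocyte-monocyte progenitors and 0.872% in immature neutrophils. Over all kept cells, without regard to class, 1 of the 10 genes was called lower against 1.79% of all genes, and 0 higher against 8.1%. That gene was Zfp36, at 605 in ND and 372 in HFD, while Nfkbia was 1050 in ND and 818 in HFD and Nfkb1 76.4 in ND and 80.4 in HFD.

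**Figure D2:**
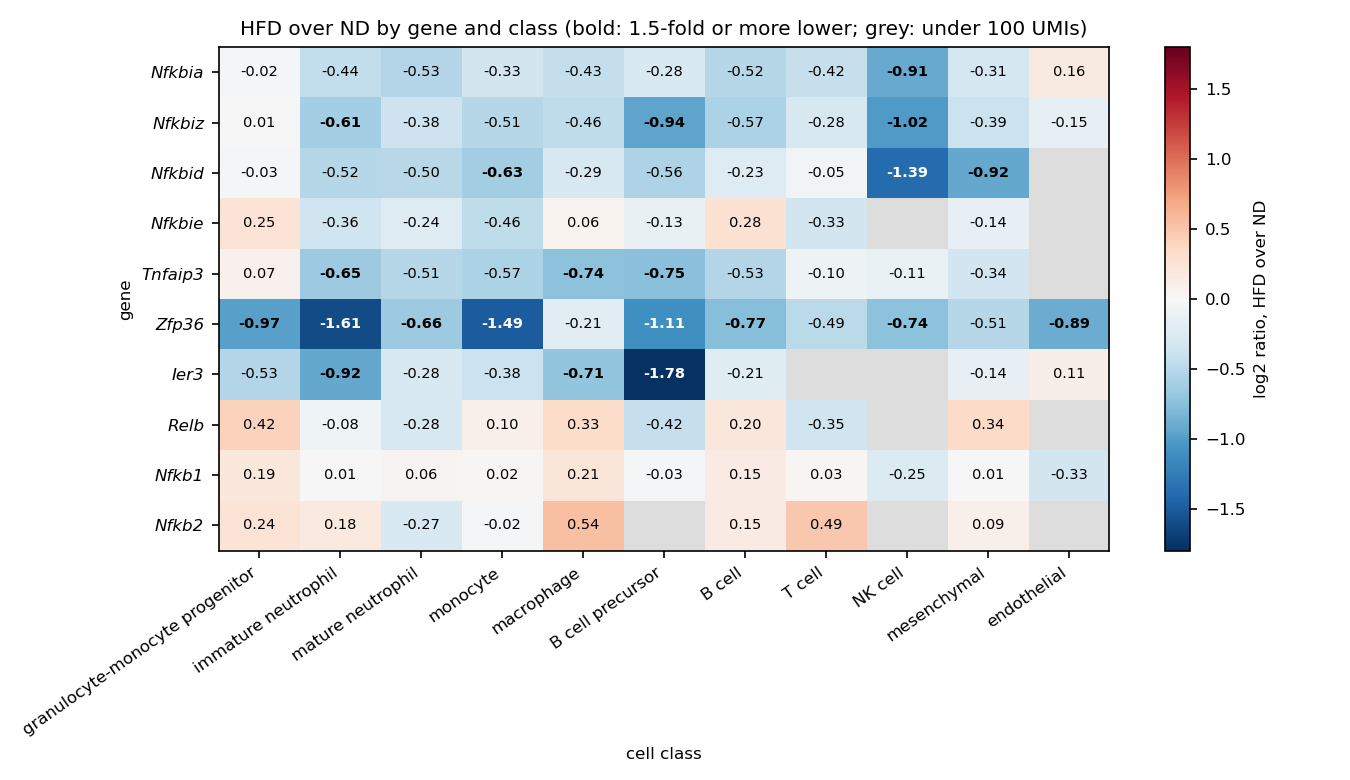
Log2 ratio of HFD over ND for each gene (rows) and class (columns), with blue for lower and red for higher in HFD, bold for at least 1.5-fold lower and grey for under 100 UMIs. The row of Zfp36 is blue throughout and reaches -1.61 in immature neutrophils, and the rows of Relb, Nfkb1 and Nfkb2 hold no bold value.

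The early-response genes were also lower in HFD. The summed level of 47 dissociation and early-response genes, which include Fos, Jun and heat-shock genes and none of the 10, was lower in HFD in every compared class. It was 15223 in ND and 7663 in HFD in immature neutrophils, 36466 and 20518 in monocytes, and 62130 and 39134 in endothelial cells. The gap was narrow in mature neutrophils (28273 and 24582), macrophages (27048 and 24894) and NK cells (34557 and 31525), where 1, 2 and 4 of the NF-kB genes were called lower. It was wider in progenitors (15606 and 8272) and T cells (32655 and 22614), where 1 of 10 and 0 of 9 were called lower. The part of the early-response genes in the differences was not tested.

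Markers of mature neutrophils moved with the diet in several other classes. Their summed level (6 genes, all with UMIs in every class in ND) was 851 in ND and 67.8 in HFD B cell precursors, 2.37% and 0.174% of the level in mature neutrophils themselves. It was 1098 and 628 in B cells, 813 and 304 in macrophages, and 1677 and 1050 in mesenchymal cells. In NK cells the direction was the opposite, 224 in ND and 460.3 in HFD, and in endothelial cells too (1722 and 2318). The part of neutrophil RNA in the levels of the 10 genes in these classes was not tested.

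Nfkbia (chr12:55489410-55492647, minus strand) was called lower in 1 of 11 classes, NK cells, but its interval lay below 0 in 9. In NK cells its level was 1587 in ND and 843 in HFD, a log2 ratio of -0.91 [-1.06 to -0.76]. Mature neutrophils had 2378 in ND and 1652 in HFD, a ratio of -0.53 [-0.56 to -0.49] that was 1.44-fold and rested on 14927 and 10644 UMIs. B cells had 881 in ND and 615 in HFD (-0.52 [-0.58 to -0.46]). The other immune classes below 0 had log2 ratios from -0.28 in B cell precursors to -0.44 in immature neutrophils, all short of the limit for a call. In granulocyte-monocyte progenitors the 2 libraries were level, with 488 in ND and 481 in HFD (-0.02 [-0.09 to 0.06]). Endothelial cells went the other way, with 927 in ND and 1035 in HFD (0.16 [0.01 to 0.31]).

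Nfkbiz (chr16:55811375-55838899, minus strand) was called lower in NK cells, B cell precursors and immature neutrophils. Its level in NK cells was 301 in ND and 148 in HFD (-1.02 [-1.39 to -0.67]), on 219 and 95 UMIs. In immature neutrophils it was 156 in ND and 102 in HFD (-0.61 [-0.73 to -0.50]), close to the limit, and in B cell precursors 32.6 in ND and 16.9 in HFD (-0.94 [-1.53 to -0.39]). Intervals of macrophages, mature neutrophils, mesenchymal cells, monocytes, B cells and T cells also lay below 0, with ratios from -0.57 in B cells to -0.28 in T cells. Endothelial cells and progenitors had intervals that spanned 0. With cells thinned to equal depth, which left few UMIs, the NK cell ratio of Nfkbiz was -0.28, short of a call. In immature neutrophils 6 of 15 alternatives kept the call of Nfkbiz. With classes taken from each cell's marker UMIs the ratio there was -0.18.

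Nfkbid (chr7:30421732-30428746, plus strand) showed its widest gap in NK cells, at 316 in ND and 120.2 in HFD, a log2 ratio of -1.39 [-1.79 to -1.02] or 2.62-fold. Monocytes (32.3 in ND and 20.8 in HFD, -0.63 [-1.02 to -0.25]) and mesenchymal cells (16.5 in ND and 8.72 in HFD, -0.92 [-1.42 to -0.43]) were also past the limit, both at low levels. Without cluster 23 the monocyte ratio was -0.47, short of the limit. With classes taken from each cell's marker UMIs it was -0.18, and 10 of 15 alternatives kept the call. Thinned to equal depth the mesenchymal ratio was -0.06, but on only 3 ND and 5 HFD UMIs, too few to judge a difference. In mesenchymal cells the neutrophil markers stood at 4.67% (ND) and 2.69% (HFD) of their level in mature neutrophils, where Nfkbid itself was 298 in ND and 210.1 in HFD. Of the 80 ND and 62 HFD UMIs of Nfkbid in mesenchymal cells, 48 and 39 came from 42 and 53 cells, a subgroup with neutrophil genes among its leading genes, at 59.9 in ND and 42.7 in HFD. In fibroblast-like mesenchymal cells Nfkbid was 4.62 in ND and 2.35 in HFD, on 11 and 8 UMIs and with overlapping intervals. T cells did not differ beyond counting error (135 in ND and 131 in HFD, -0.05 [-0.32 to 0.22]), so that among lymphocytes the gap of NK cells was not seen in T cells, a difference between classes that was not tested.

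Nfkbie (chr17:45555703-45563169, plus strand), which encodes IkB-epsilon, was called in 0 of 9 classes tested. Its level was 58.5 in ND and 42.6 in HFD in monocytes (-0.46 [-0.74 to -0.18]) and 59.1 in ND and 50.1 in HFD in mature neutrophils (-0.24 [-0.46 to -0.02]). B cells were higher in HFD, with 59.9 in ND and 72.6 in HFD (0.28 [0.06 to 0.49]). Nfkbia and Nfkbie were the IkB genes with intervals on both sides of 0. In monocytes the ratio of Nfkbie was -0.71 without cluster 23, past the limit.

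Zfp36 (chr7:28376784-28380253, minus strand) was called lower in 8 of 11 classes, and all 11 intervals lay below 0. In immature neutrophils its level was 567 in ND and 186 in HFD, a log2 ratio of -1.61 [-1.68 to -1.53], and in monocytes 827 in ND and 294 in HFD, a ratio of -1.49 [-1.59 to -1.40]. These 2 classes also hold clusters 19 and 23, most of whose cells came from ND. Cluster 19 had 2336 in ND and cluster 23 2381, with summed early-response levels of 44070 and 78124. Without the clusters held mostly by 1 library, a setting chosen after the data were seen, the log2 ratios were -0.67 in immature neutrophils and -0.69 in monocytes, past 1.5-fold at a smaller size. Weighting the clusters of a class equally in both libraries gave -0.54 in immature neutrophils, short of the limit, and -0.70 in monocytes.

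The other calls of Zfp36 came from classes without such clusters at the resolution used. They were endothelial cells (1988 in ND and 1071 in HFD, -0.89 [-1.01 to -0.78]), progenitors (146 in ND and 74.2 in HFD, -0.97 [-1.15 to -0.80]), B cell precursors (206 in ND and 95.5 in HFD, -1.11 [-1.34 to -0.88]), B cells (593 in ND and 348 in HFD, -0.77 [-0.85 to -0.69]), NK cells (-0.74) and mature neutrophils (-0.66). At resolution 1 a mature neutrophil cluster of 239 ND and 48 HFD cells was set apart, and its part in the mature neutrophil ratio was not tested. The ratio of Zfp36 was -0.79, -0.45 and -0.38 within the mature clusters 1, 2 and 4, past 1.5-fold in the first. Of these calls, that of NK cells was lost with thinned cells (-0.43), on 33 ND and 20 HFD UMIs. Macrophages had the smallest gap, 801 in ND and 695 in HFD (-0.21 [-0.31 to -0.10]). In progenitors Zfp36 and Ier3 (123 in ND and 85.2 in HFD, -0.53 [-0.70 to -0.36]) were lower there, while the other 8 genes had intervals that spanned 0.

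Tnfaip3 (chr10:19000910-19015657, minus strand) was called lower in macrophages, B cell precursors and immature neutrophils. Macrophages had 177 in ND and 106 in HFD (-0.74 [-0.99 to -0.50]), and mature neutrophils 233 in ND and 163 in HFD (-0.51 [-0.63 to -0.40]). Of the compared classes, those with the highest level of A20 mRNA, NK and T cells, had ratios of -0.11 [-0.36 to 0.13] and -0.10 [-0.26 to 0.06]. Both intervals spanned 0. In NK cells Nfkbid, Nfkbiz and Nfkbia were called lower in the same libraries, while the interval of Tnfaip3 left out a 1.5-fold difference. In immature neutrophils Tnfaip3 was 66.6 in ND and 42.3 in HFD (-0.65 [-0.83 to -0.48]) and in B cell precursors 41.2 in ND and 24.5 in HFD (-0.75 [-1.24 to -0.27]), and with classes taken from each cell's marker UMIs these calls were lost, at -0.13 and -0.17. In endothelial cells the gene had 21 and 15 UMIs, under the minimum.

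Ier3 (chr17:35821684-35822923, plus strand) was called lower in B cell precursors, immature neutrophils and macrophages. Macrophages had 774 in ND and 472 in HFD (-0.71 [-0.83 to -0.60]) and immature neutrophils 176 in ND and 93.0 in HFD (-0.92 [-1.04 to -0.81]). B cell precursors had 61.3 in ND and 17.7 in HFD (-1.78 [-2.32 to -1.30]), the largest ratio of any pair, in the class in which the summed neutrophil markers differed most between the libraries, and mature neutrophils themselves had 261 in ND and 215 in HFD. With classes taken from each cell's marker UMIs the macrophage ratio of Ier3 was -0.52, short of the limit. Where Ier3 was highest, the diets were close. Mesenchymal cells had 886 in ND and 802 in HFD (-0.14 [-0.20 to -0.09]) and endothelial cells 845 in ND and 912 in HFD (0.11 [-0.05 to 0.27]).

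Among the subunit genes, Nfkb1 (chr3:135584655-135691547, minus strand), which encodes the p105 precursor of p50, had an interval that spanned 0 in all 11 classes. Its level was 60.1 in ND and 60.6 in HFD in immature neutrophils, 68.2 in ND and 68.7 in HFD in mesenchymal cells and 79.1 in ND and 79.9 in HFD in monocytes, with ratios of 0.01 [-0.15 to 0.18], 0.01 [-0.19 to 0.22] and 0.02 [-0.20 to 0.23]. As far as counting error goes, these 3 intervals leave out a 1.5-fold difference. Nfkb2 (chr19:46304320-46312385, plus strand), which encodes the p100 precursor of p52 in the non-canonical pathway, was higher in HFD macrophages (34.6 in ND and 50.3 in HFD, 0.54 [0.09 to 1.00]) and T cells (37.5 in ND and 52.4 in HFD, 0.49 [0.01 to 0.96]). It was lower in mature neutrophils (61.5 in ND and 51.1 in HFD, -0.27 [-0.48 to -0.05]). Relb (chr7:19606217-19629438, minus strand), the partner of p52, was higher in HFD mesenchymal cells (26.4 in ND and 33.6 in HFD, 0.34 [0.03 to 0.67]), and its 8 other intervals spanned 0. None of these reached 1.5-fold, and Nfkb2 in endothelial cells (45.0 in ND and 22.0 in HFD, on 26 and 25 UMIs) was under the minimum for a call.

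The clusters of the neutrophil lineage are shown in the plot of neutrophil-lineage clusters. Mature neutrophils alone held 29.6% of the Nfkbia UMIs and 43.2% of the Nfkbiz UMIs of the ND library. Of the 3 mature clusters, cluster 1, led by Il1r2, Il1b and Cxcl2 (758 ND and 649 HFD cells), had the highest levels of Nfkbia, Nfkbiz, Nfkbid, Tnfaip3, Zfp36 and Ier3. There Nfkbia was 3410 in ND and 2484 in HFD and Tnfaip3 329 in ND and 223 in HFD. Zfp36 was 1172 in ND and 679 in HFD in the same cluster and Nfkbid 456 in ND and 339 in HFD. Cluster 2, led by stefin genes, and cluster 4, led by Retnlg, had the same direction at lower levels, with Nfkbia at 2030 in ND and 1412 in HFD in cluster 2 and at 1560 in ND and 1171 in HFD in cluster 4. The gap thus appeared within each of the 3 mature clusters for Nfkbia, Nfkbiz, Nfkbid, Tnfaip3 and Zfp36, and for Ier3 in clusters 1 and 2 only (167 in ND and 185 in HFD in cluster 4).

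**Figure D3:**
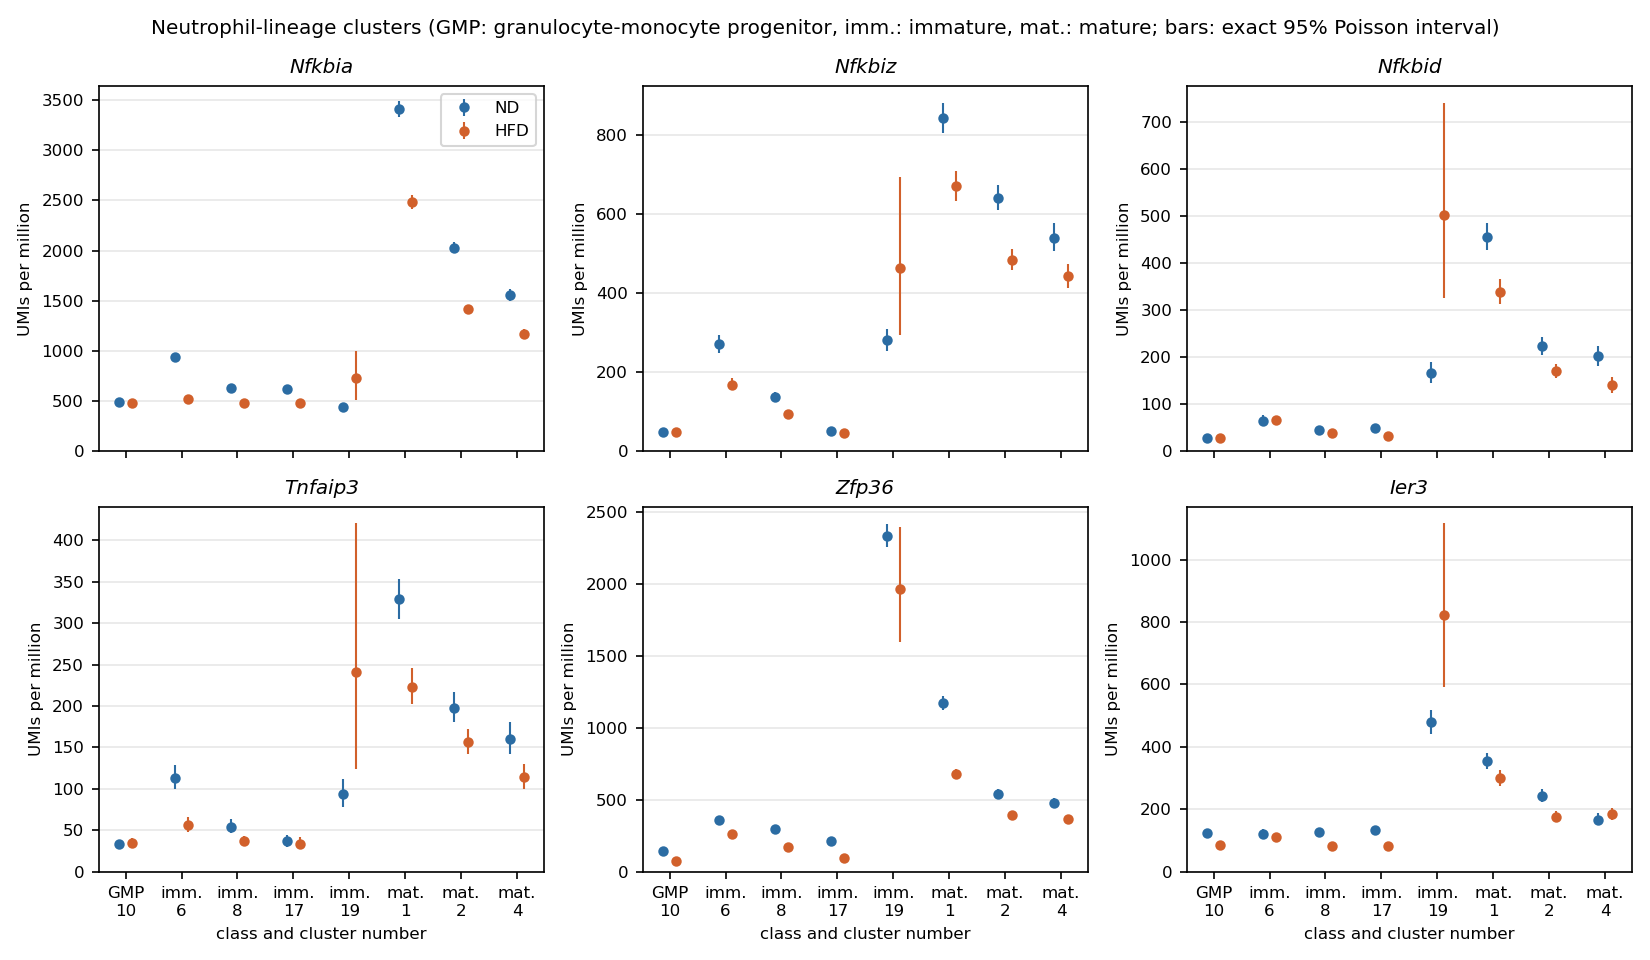
Level (UMIs per 1000000) of 6 genes in the clusters of granulocyte-monocyte progenitors, immature and mature neutrophils, ND in blue and HFD in orange, bars exact 95% Poisson intervals. Nfkbia rises to 3410 (ND) and 2484 (HFD) in mature cluster 1, and cluster 19, with 10 HFD cells, has the highest Zfp36 and wide HFD intervals.

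Immature neutrophils were less uniform. Clusters 6, 8 and 17, which both libraries filled, had Zfp36 at 362 in ND and 263 in HFD, at 298 in ND and 175 in HFD and at 216 in ND and 97.1 in HFD. In cluster 6 Nfkbia was 938 in ND and 514 in HFD and Tnfaip3 114 in ND and 56.3 in HFD, while Nfkbid did not differ (63.4 in ND and 65.0 in HFD). Cluster 19 had 2336 in ND and 1968 in HFD for Zfp36, and for Nfkbia, Nfkbiz, Nfkbid, Tnfaip3 and Ier3 its 10 HFD cells had higher levels than its 178 ND cells. Without that cluster, Zfp36 (-0.67) and Tnfaip3 (-0.59) kept their calls in immature neutrophils, and Ier3 (-0.51) and Nfkbiz (-0.44) lost them. With clusters weighted equally none of the 4 was called, and the ratio of Nfkbid in immature neutrophils, -0.52, turned to 0.36.

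Among B cells the clusters disagreed. In cluster 5, led by MHC class II genes, Nfkbia was 861 in ND and 398 in HFD and Nfkbid 265 in ND and 146 in HFD. Of its cells 8.61% were called doublets, the highest share of any cluster, and at resolution 1 a group of 33 ND and 19 HFD cells stood apart with B cell and neutrophil genes (Cd79a, Cstdc4 and Retnlg) in the lead, 96.2% of them called doublets. With called doublets removed, the ratios over all B cells were -0.48 for Nfkbia (-0.52 with them) and -0.21 for Nfkbid (-0.23), while the values of cluster 5 alone were not recomputed. In cluster 0 the values were 661 in ND and 509 in HFD and 228 in ND and 257 in HFD, and in cluster 9, led by Vpreb3, 923 in ND and 1002 in HFD and 94.5 in ND and 102 in HFD. The lower Nfkbia of HFD B cells was therefore seen in clusters 0 and 5 and not in cluster 9. Zfp36 was lower in each of these 3, with 514 in ND and 219 in HFD in cluster 9. The small cluster 20 (104 ND and 48 HFD cells) had the highest level, Nfkbia at 2470 in ND and 1547 in HFD, beside the highest summed early-response level of any cluster (91739 and 84435), and Zfp36 there was 1252 in ND and 1312 in HFD.

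In T cells, cluster 14 (177 and 161 cells) had Nfkbia at 899 in ND and 729 in HFD, and cluster 21, held mostly by ND, at 1239 in ND and 947 in HFD. Tnfaip3 varied little between both clusters and libraries, from 342 to 386. Over all clusters with at least 100 UMIs of the gene, Zfp36 was lower in HFD in 26 of 27, Nfkbia in 24 of 28 and Tnfaip3 in 19 of 22. Nfkb1 was lower in 9 of 20 and Nfkb2 in 7 of 14. The same count over all genes was not made by cluster. By class, the share of all genes below 0 ran from 37.8% to 61.7%. The clusters share 2 libraries and are not repeats of the comparison.

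Mesenchymal cells were clustered again into fibroblast-like (213 ND and 334 HFD cells), tenocyte-like (98 and 163) and osteoblast-like cells (58 and 128) and a group of 42 and 53 cells that stayed unnamed because neutrophil genes were among its leading genes. Osteoblast-like cells, led by Mmp13, Postn and osteocalcin genes, had the lowest Nfkbia of the named groups (580.3 in ND and 425 in HFD) and Zfp36 at 739 in ND and 278 in HFD, a log2 ratio of -1.41. Ier3 was 1209 in ND and 714 in HFD in them (-0.76). In tenocyte-like cells Nfkbiz was 196 in ND and 81.9 in HFD (-1.26) and Zfp36 1172 in ND and 716 in HFD (-0.71). Fibroblast-like cells had the smallest gaps, with Nfkbia at 1181 in ND and 1068 in HFD (-0.14), Nfkbiz at 234 in ND and 216 in HFD (-0.12) and Ier3 at 805 in ND and 789.5 in HFD (-0.03). The pooled mesenchymal ratios therefore combine groups with large and small gaps, and the differences between the groups were not tested.

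To compare single cells at equal depth, 1000 UMIs were drawn from every cell, and 55 ND cells and 51 HFD cells with fewer were not used. In mature neutrophils Nfkbia was detected in 69.1% of ND and 57.5% of HFD cells, and the cells with a UMI held 3.90 and 3.29 UMIs each. Both the share of cells and the molecules per positive cell were thus lower in HFD. In immature neutrophils Zfp36 was found in 36.6% and 19.8% of cells, at 2.54 and 1.27 UMIs per positive cell. That class includes cluster 19 (178 ND and 10 HFD cells), which had the highest Zfp36 of the neutrophil-lineage clusters. The part of cluster 19 in these values was not tested. In the few erythroid cells (33 and 26), Zfp36 was found in 3.03% and 3.85% and Nfkbia in 24.2% and 23.1%. The early-response genes were lowest in these cells. Their median depths before thinning were 8589 and 8280 UMIs, against 3340 and 3446 in mature neutrophils. These values therefore set no level of free RNA for other classes, and the part of free RNA was not tested.

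Joint detection differed in the same direction. UMIs of 3 or more of the 10 genes were found in 45.7% [43.3 to 48.1] of ND mature neutrophils and 34.3% [32.0 to 36.7] of HFD ones. The shares were 31.6% and 19.9% in mesenchymal cells, 14.2% and 8.01% in immature neutrophils, and 14.7% and 10.4% in B cells, each with intervals that did not overlap. In macrophages (43.2% and 34.1%), NK cells (34.4% and 23.1%), T cells, monocytes and endothelial cells the HFD share was lower with overlapping intervals, and progenitors (5.49% and 6.22%) and B cell precursors (7.06% and 6.70%) were about level. Cells with none of the 10 made up 27.6% of ND and 40.2% of HFD immature neutrophils.

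**Figure D4:**
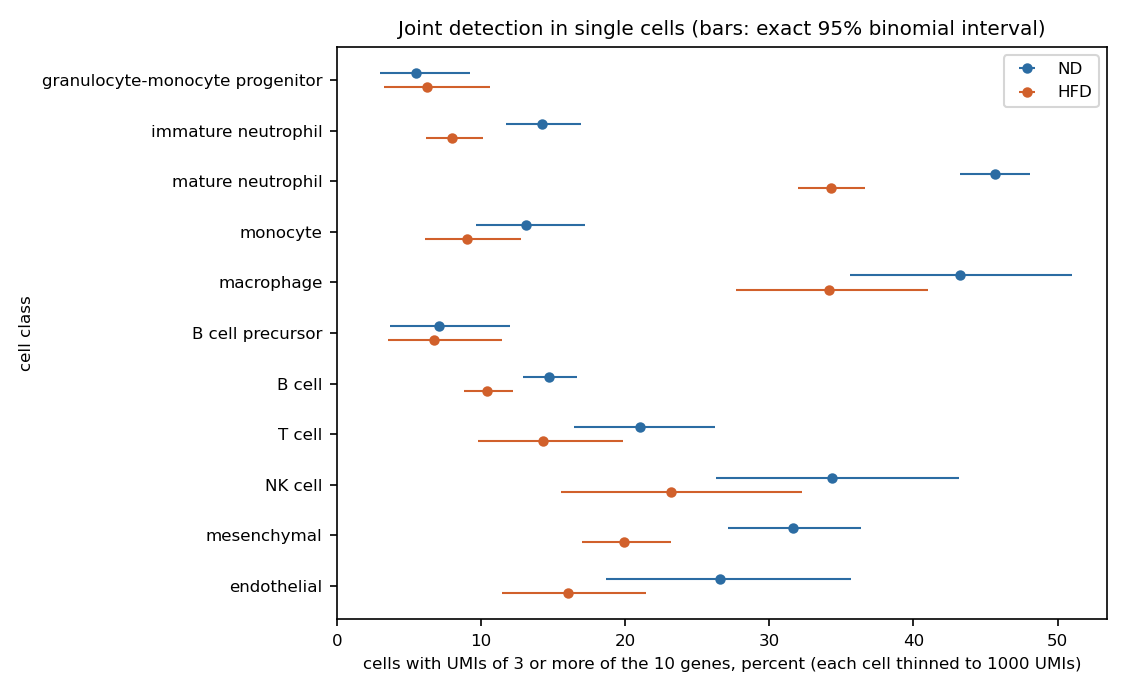
Share of cells (percent) with UMIs of 3 or more of the 10 genes after thinning each cell to 1000 UMIs, by class, with ND in blue and HFD in orange and exact 95% binomial intervals as bars. The ND point lies to the right of the HFD point in every class but granulocyte-monocyte progenitors, at 45.7% against 34.3% in mature neutrophils.

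The rest of the pathway was read from lists of its parts, over the same 11 classes. Of other subunits and IkB proteins, which include Rela and Rel, 2 of 44 pairs of gene and class were called lower and 0 higher. The IkB kinase complex with its adaptors had 11 of 190 lower and 5 higher, and the receptors 5 of 73 lower and 0 higher. These percentages called lower, 4.55%, 5.79% and 6.85%, stood above the 3.21% of all genes and below the 21.2% of the 10 genes. The ligands had 14 of 40 lower (35%) and 6 higher (15%), and other NF-kB target genes 69 of 238 lower (29.0%) and 5 higher. The early-response list had the largest share, 181 of 454 lower (39.9%) and 2 higher. The percentages lower of these 3 lists stood above the 21.2% of the 10 genes. Other inhibitors of the pathway had 11 of 135 lower (8.15%) and 4 higher.

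In mature neutrophils, the class with the most UMIs of the 10 genes, Rel was 223 in ND and 179.5 in HFD (-0.31 [-0.43 to -0.20]) and Rela 60.8 in ND and 49.3 in HFD (-0.30 [-0.52 to -0.08]). Map3k8, which encodes the kinase TPL2 that p105 holds inactive, was 88.6 in ND and 41.4 in HFD (-1.09 [-1.31 to -0.88]), and the adaptor gene Traf1 70.9 in ND and 41.7 in HFD (-0.76 [-0.99 to -0.54]). The adaptor gene Bcl10 was slightly higher in HFD, at 247 in ND and 266 in HFD. Among ligands, Tnf was 104 in ND and 61.1 in HFD (-0.76 [-0.95 to -0.58]) and Il1b, with the most UMIs of the list, 3557 in ND and 3011 in HFD (-0.24 [-0.27 to -0.21]). The co-receptor gene Cd14 was 1114 in ND and 848 in HFD and the decoy receptor gene Il1r2 3090 in ND and 2886 in HFD. Of other inhibitors, Zfp36l1, a paralog of Zfp36, was 91.4 in ND and 39.9 in HFD (-1.20 [-1.41 to -0.98]), and Tax1bp1, a partner of A20, 483 in ND and 486 in HFD (0.01 [-0.06 to 0.08]). The target gene Ccrl2 was 627 in ND and 356 in HFD (-0.82 [-0.89 to -0.74]), while the chemokine gene Cxcl2 was 5582 in ND and 5102 in HFD (-0.13 [-0.15 to -0.11]). Of the early-response genes, Jun was 499 in ND and 189.6 in HFD (-1.39 [-1.49 to -1.30]), while Cebpb, with the most UMIs of the list, was not lower, at 4690 in ND and 5085 in HFD (0.12 [0.09 to 0.14]).

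In mesenchymal cells Rela was 43.2 in ND and 43.3 in HFD (0.00 [-0.25 to 0.27]) and the receptor gene Tnfrsf1a 114 in ND and 111 in HFD (-0.05 [-0.20 to 0.11]), both level. Zfp36l1 was level as well, at 739.5 in ND and 712 in HFD (-0.06 [-0.12 to 0.01]), whereas Zfp36 was 1030 in ND and 721 in HFD (-0.51 [-0.57 to -0.46]). Other genes of these lists were not level. The inhibitor genes Peli1 (-0.46 [-0.73 to -0.18]) and Cyld (-0.43 [-0.75 to -0.10]) were lower in HFD. So were Cd14 (-0.56 [-0.79 to -0.34]) and the adaptor gene Myd88 (-0.37 [-0.61 to -0.13]), while Tab2 was slightly higher (0.20 [0.00 to 0.40]). The alarmin gene Il33 was higher in HFD, at 25.6 in ND and 39.3 in HFD (0.61 [0.31 to 0.93]), and Tnfsf12, which encodes TWEAK, too, at 102 in ND and 136 in HFD (0.42 [0.26 to 0.58]). Il1b was 147 in ND and 66.4 in HFD (-1.14 [-1.32 to -0.98]), beside the neutrophil markers given above. The chemokine gene Cxcl1 was 637 in ND and 531 in HFD (-0.26 [-0.33 to -0.19]).

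In B cells the NF-kB subunit gene Rel was level, at 555 in ND and 553 in HFD (-0.00 [-0.08 to 0.07]), and so was the BAFF receptor gene Tnfrsf13c (433 in ND and 426 in HFD). Traf1 was 92.7 in ND and 46.1 in HFD (-1.01 [-1.24 to -0.79]) and Zfp36l1 553 in ND and 395 in HFD (-0.49 [-0.57 to -0.41]). In immature neutrophils Tnf was 68.7 in ND and 37.7 in HFD (-0.86 [-1.05 to -0.68]) and Map3k8 62.4 in ND and 29.6 in HFD (-1.07 [-1.28 to -0.88]).

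Over the 22 points of class and library and 7561 genes, the gene most like Zfp36 in its pattern was Fos (Pearson's r of log2 levels 0.89). The closest to Nfkbia was Csrnp1 (0.89), to Nfkbiz Ctsd (0.92), to Nfkbid Ptk2b (0.92) and to Tnfaip3 Pik3r5 (0.92). Ier3 was closest to App (0.95), Nfkbie to Cytip (0.94), Relb to Trim26 (0.92), Nfkb1 to Traf1 (0.89) and Nfkb2 to Elmsan1 (0.87). The points share 2 libraries and the classes differ in depth, so that these values describe likeness only.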

How the data were processed

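Periosteal cells of 8 labelled samples, 4 per diet, were profiled by droplet 3' RNA sequencing. Raw counts of UMIs per gene and barcode were deposited by the authors as 1 pooled matrix per diet; the submitters' processing notes name Cell Ranger 6.0.1 and the mm10 build. Every column with values per sample was used (0 left out).

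Barcodes with over 500 and under 8000 genes and under 20% mitochondrial UMIs were kept. Both libraries were normalised together with SCTransform (Seurat 5.3.0, sctransform 0.4.2, R 4.3.3), with cell cycle scores regressed, on 2924 features that left out the 10 genes and the NF-kB lists, and clustered on 30 principal components at resolution 0.5. Clusters were named from fixed markers by a rule adjusted after the clusters had been seen. Doublets were kept in the main result and called in an alternative by Scrublet (scanpy 1.11.5) at a score above 0.25, set after the automatic threshold had marked 0.149% and 0.370% of cells.

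Levels are summed UMIs per 1000000, and ratios were computed with 0.5 added to each count (Python 3.11.15, scipy 1.17.1). Intervals are exact Poisson, Clopper-Pearson or conditional binomial intervals. A gene with at least 100 UMIs over both libraries in a class was called lower or higher past 1.5-fold. With 1 library per diet no p-value was computed, and PCR and capture add error that the intervals leave out. The median depth of kept cells was 4610 UMIs in ND and 4823.5 in HFD, which leaves genes with few UMIs in the small classes with wide intervals. The calculations were tested on simulated counts.

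The members, the gene lists and the tests were chosen with earlier results of these data known. The text names the 10 genes in every class, and from each list, in the 4 classes with the most UMIs of the 10, the 2 genes with the largest ratio among those with at least 100 UMIs in each library and the 2 with the most UMIs. For likeness it names the gene with the highest correlation, among genes with at least 1000 UMIs. Not every gene that this rule allows is named. Alternatives changed the cell filters, clustering, class definition, depth, scaling, weights, count minimum and fold, and 1 (leaving out clusters with over 70% of their cells from 1 library) was added after the data were seen.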

Additional observations from a re-analysis of the deposited data

Results flagged for a closer look

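Nfkbia was lower in HFD in NK cells, at a log2 ratio of -0.91, and higher in endothelial cells, at 0.16. Nfkbie was lower in monocytes (-0.46) and higher in B cells (0.28). Nfkb2 was lower in mature neutrophils (-0.27) and higher in macrophages (0.54). In each case the counting interval lay below 0 in the former class and above 0 in the latter. These differences between classes were not tested, since each class had 1 library per diet, and only Nfkbia in NK cells was past 1.5-fold.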

How the results depend on the processing

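The 21 pairs called lower stayed below 0 under all 14 or 15 alternatives run for each, and 11 of them stayed past 1.5-fold under all. At a fold of 2, 6 pairs were called (6.06% against 0.84% of all genes), with 0 in B cells, mature neutrophils and mesenchymal cells and 1 in immature neutrophils. At 1.5-fold the percentage of pairs called lower was between 17.2 and 32.6, and 1 pair was called higher at resolution 1, without the early-response genes among the features, and with every cell given the same weight. With at least 20 UMIs 22.0% of pairs and 7.86% of all genes were called lower. With no minimum these were 21.8% and 19.6%, close together. In immature neutrophils the count of 4 became 2 with NF-kB genes among the features, 1 with classes from each cell's marker UMIs, 2 without the 50 highest genes in the total, 0 with clusters weighted equally and 2 without clusters held mostly by 1 library. In B cells the count of 1 became 2 with marker UMIs, with thinned cells and with median-ratio scaling. In mature neutrophils it became 3 with marker UMIs and 2 with thinned cells, and in mesenchymal cells 2 with thinned cells and with every cell given the same weight. At resolution 0.25 the class with the highest level was the same for 12 of 20 pairs of gene and library. There the cluster with NK cell markers stayed unnamed and 10 classes were compared, so that orders led by NK cells could not recur. Such orders were those of Tnfaip3 and Nfkb1 in both libraries and of Nfkbid and Relb in ND. With classes from marker UMIs the leading class was the same for 15 pairs, and macrophages led Nfkbia in both libraries and Ier3 in ND. The 4 other alternatives that changed the classes or the weight of cells gave 16 to 18. Apart from the alternative's own construction, the cause of these changes was not tested. Of the single ratios under the alternatives, 158 moved beyond their counting interval and 1482 did not. No paired analysis was possible because the matrices carry no replicate numbers, and for the same reason no replicate could be left out in turn. Depth limits the endothelial and NK values most, where 5 and 4 of the 10 genes had under 100 UMIs.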

Other observations

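Classes with under 50 cells in a library were not compared but held high levels of some of the genes. In basophil or mast-like cells (48 ND and 53 HFD cells) Nfkbia reached 2956 in ND and 2583 in HFD, above its level in mature neutrophils. There Nfkb1 was 112 in ND and 253 in HFD, with intervals of 85.6 to 144 and 213 to 299 that did not overlap, and Nfkbiz 539 in ND and 805 in HFD. Tnfaip3 was 512 in ND and 680.5 in HFD, with intervals of 453 to 575 and 613 to 753, above its level in any compared class. These 3 genes were thus higher in HFD, while the summed early-response level was 33494 in ND and 21917 in HFD. In plasmacytoid dendritic-like cells (42 and 56) Nfkbid was 139.9 in ND and 40.8 in HFD, on 64 and 25 UMIs, and Nfkbia 616 in ND and 354 in HFD. In pericyte or smooth muscle-like cells (31 and 59) Zfp36 was 1514 in ND and 744 in HFD.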
